A study of Mus musculus with 2 samples.

Results

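The genes described here are 38 genes of glycolysis, lactate handling, pyruvate entry and the neighbouring glycogen and pentose phosphate branches. They were chosen by gene name on the array, with Pkm written Pkm2 there, out of 27975 genes in all. They were read by 66 of the 41174 gene probes and by 84 of the 43379 gene spots. The rule uses names and no measured value.

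Glycolysis splits glucose into pyruvate in the cytosol, and lactate dehydrogenase turns pyruvate into lactate, which leaves the cell through monocarboxylate transporters. Most steps are served by several isozymes whose genes are used to different extents in different tissues. Pyruvate that is not turned into lactate enters mitochondria through the pyruvate dehydrogenase complex, which is switched off by 4 pyruvate dehydrogenase kinases, and glucose 6-phosphate can also leave for glycogen or for the pentose phosphate branch, which makes NADPH and ribose. Effector T cells are known to raise glycolysis on activation, largely through Hif1a and Myc, and regulatory T cells (Tregs), the Foxp3-expressing CD4 T cells that restrain immune responses, are known to rely more on mitochondrial oxidation.

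The study compared RNA of sorted Tregs that lack Bcl11b, a zinc finger transcription factor needed for T cell identity, with RNA of sorted wild-type Tregs on 2 two-colour Agilent arrays. On the first array the deficient cells were Foxp3-GFP+ Tregs of Bcl11bF/F/Cd4Cre/Foxp3-GFP+ mice, set against wild-type Foxp3-GFP+ Tregs. On the second array the deficient cells were Tregs of Bcl11bF/F/Foxp3Cre mice, set against wild-type Tregs. All cells came from the C57BL/6 background, and no age or treatment was given. Each wild-type pool came from 3 mice, and how many mice the deficient pools held was not given in the labels. Cd4Cre is active from the CD4 CD8 double-positive stage in the thymus, so conventional T cells lose Bcl11b as well, whereas Foxp3Cre acts in cells that express Foxp3. The sample labels do not name the Cre lines, and the first array was assigned to Cd4Cre from its Foxp3-GFP label and the design text.

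Each pool was hybridised once, with Cy5 always on the deficient RNA and Cy3 on the wild-type RNA, so neither array had a replicate or a dye swap and a dye effect on a probe cannot be told apart from a genotype effect. A ratio below is the log2 of deficient over wild-type signal after loess normalization within the array. The brightest probe stands for its gene, and the gene counted as detected when either channel of that probe was well above background. The error given after a ratio is the scanner software's error for the spot, a technical error of a single array with a median of 0.212 (log2) over these genes, and it does not cover variation between mice. In such bulk RNA, fewer cells of a type and less RNA per cell cannot be told apart.

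Bcl11b signal (log2) was 13.09 in the deficient and 15.55 in the wild-type Cd4Cre pool, and 13.14 in the deficient and 14.95 in the wild-type Foxp3Cre pool, lower by 5.50-fold and 3.52-fold. The deficient Cd4Cre pool stood apart in its cell type markers. Its mean log2 signal over 6 Treg markers was 11.39, against 14.24 in its wild-type pool, and Foxp3 itself had a ratio of -3.57. On that array 9 of 11 neutrophil and monocyte markers and 5 of 5 NK cell markers were at least 2-fold higher in deficient cells. So were 2 of 2 CD8 T cell markers and 5 of 7 proliferation markers, beside 11.4% of all genes. The median ratios of these marker groups, in that order, were 3.67, 3.78, 1.88 and 2.24. The 9 include Elane, whose wild-type channel was not well above background and whose bound was at least 1.33-fold. The other 2, the monocyte markers Cd14 and Csf1r, were lower, at -1.05 and -1.51, and Csf1r was at -1.20 on the Foxp3Cre array. On the Foxp3Cre array the Treg markers had a median ratio of -0.02 and ranged from -0.94 (Gpr83) to 1.22 (Ctla4). The proliferation markers had a median of 0.56 on that array, with 0 of 7 at least 2-fold higher and Mcm2 at least 2-fold lower (-1.31). Of the 10 detected neutrophil and monocyte markers, 6 were at least 2-fold higher there, beside 2.93% of all genes, and the median of the 10 was 1.37. There the NK and CD8 T cell markers had medians of 0.57 and 0.05. The general T cell, B cell and erythroid markers had medians of -0.93, 1.06 and 0.60 with Cd4Cre and of -0.05, -0.03 and 0.34 with Foxp3Cre. With median centring the Foxp3Cre medians of the Treg, T cell, B cell and CD8 T cell markers were 0.49, 0.34, 0.45 and 0.78. Then 3 of 6 Treg and 3 of 7 proliferation markers were at least 2-fold higher on that array, beside 2043 of all 15187 genes. The platelet gene Pf4 was at least 1.94-fold higher in deficient Cd4Cre Tregs, with no wild-type signal well above background, and 5.71-fold higher in deficient Foxp3Cre Tregs. Another platelet marker, Itga2b, went the other way on the Cd4Cre array, at -0.33, and was well above background only in its wild-type channel. It was not well above background on the Foxp3Cre array. Pax5 and Ppbp were not well above background on either array. The part of these other cell types and of cell division in the results below was not tested.

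Sequences of 6 probes show what was hybridised, each a 60-base oligonucleotide printed in the sense direction of its gene with mm9 coordinates as the files give them. The Pfkp and Eno1 probes stand for their genes below, whereas the Hk1, Slc16a1 and Ldha probes are dimmer ones than those that do. The printed Ldha probe read -0.17 with Cd4Cre and -0.90 with Foxp3Cre. The Hk1 pair, on the minus strand at chr10:61734377-61734436 and chr10:61732735-61732794, read the gene that had the lowest ratio on both arrays with loess. The Slc16a1 probe, on the plus strand at chr3:104457083-104457142, is the dimmest of 3 and read a gene that was higher on both. The Pfkp, Ldha and Eno1 probes are placed across stretches of 2155, 930 and 226 genomic bases (chr13:6581718-6583872 on the minus strand, chr7:54109426-54110355 and chr4:149618134-149618359 on the plus strand), so that they cannot lie in 1 unbroken genomic stretch of 60 bases. Whether a probe lies in an untranslated region was not determined here, because no annotation of that build was used.
Hk1, first: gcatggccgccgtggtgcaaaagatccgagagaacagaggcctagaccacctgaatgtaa
Hk1, second: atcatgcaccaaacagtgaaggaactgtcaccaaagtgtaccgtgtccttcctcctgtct
Slc16a1: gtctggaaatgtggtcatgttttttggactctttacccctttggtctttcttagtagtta
Pfkp: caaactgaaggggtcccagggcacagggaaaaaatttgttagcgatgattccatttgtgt
Ldha: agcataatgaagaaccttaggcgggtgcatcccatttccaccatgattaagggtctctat
Eno1: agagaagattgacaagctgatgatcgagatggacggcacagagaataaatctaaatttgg

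Of the 38 genes, 37 were detected with Cd4Cre and 36 with Foxp3Cre. Pdk4 was not well above background on either and Eno2 not on the second. Deficient Cd4Cre cells had 3 of these genes at least 2-fold higher, Tpi1, Slc16a1 and Pdk3, beside 11.4% of all detected genes, and 3 at least 2-fold lower, Hk1, Ldhb and Eno3, beside 10.6% of all genes. Deficient Foxp3Cre cells had none at least 2-fold higher, beside 2.93% of all genes, and 5 at least 2-fold lower, Hk1, Pkm, Eno1, Tkt and Pfkl, beside 11.5% of all genes. With no replicate of either comparison there is no test behind these counts.

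The ratios spread around 0 on the Cd4Cre array and, with loess, lay mostly below 0 on the Foxp3Cre array. The median ratio of the detected genes was -0.004 on the Cd4Cre array, where the median of all genes was -0.05, and -0.38 on the Foxp3Cre array, where that of all genes was -0.08. Ratios above 0 were found for 18 genes on the Cd4Cre array, 48.6% of those detected beside 47.2% of all genes, and for 8 genes on the Foxp3Cre array, 22.2% of those detected beside 45.4% of all genes. The choice of normalization moved these values. With the array centred on its median and no loess curve, the medians were 0.50 with Cd4Cre and 0.08 with Foxp3Cre. The median of all genes then moved to 0.07 and 0.16. With that centring 24 and 21 genes were above 0, beside 53.1% and 57.3% of all genes. The lower values on the Foxp3Cre array are therefore given below together with the median-centred ratio wherever it ended a 2-fold call or turned a direction.

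**Figure D1:**
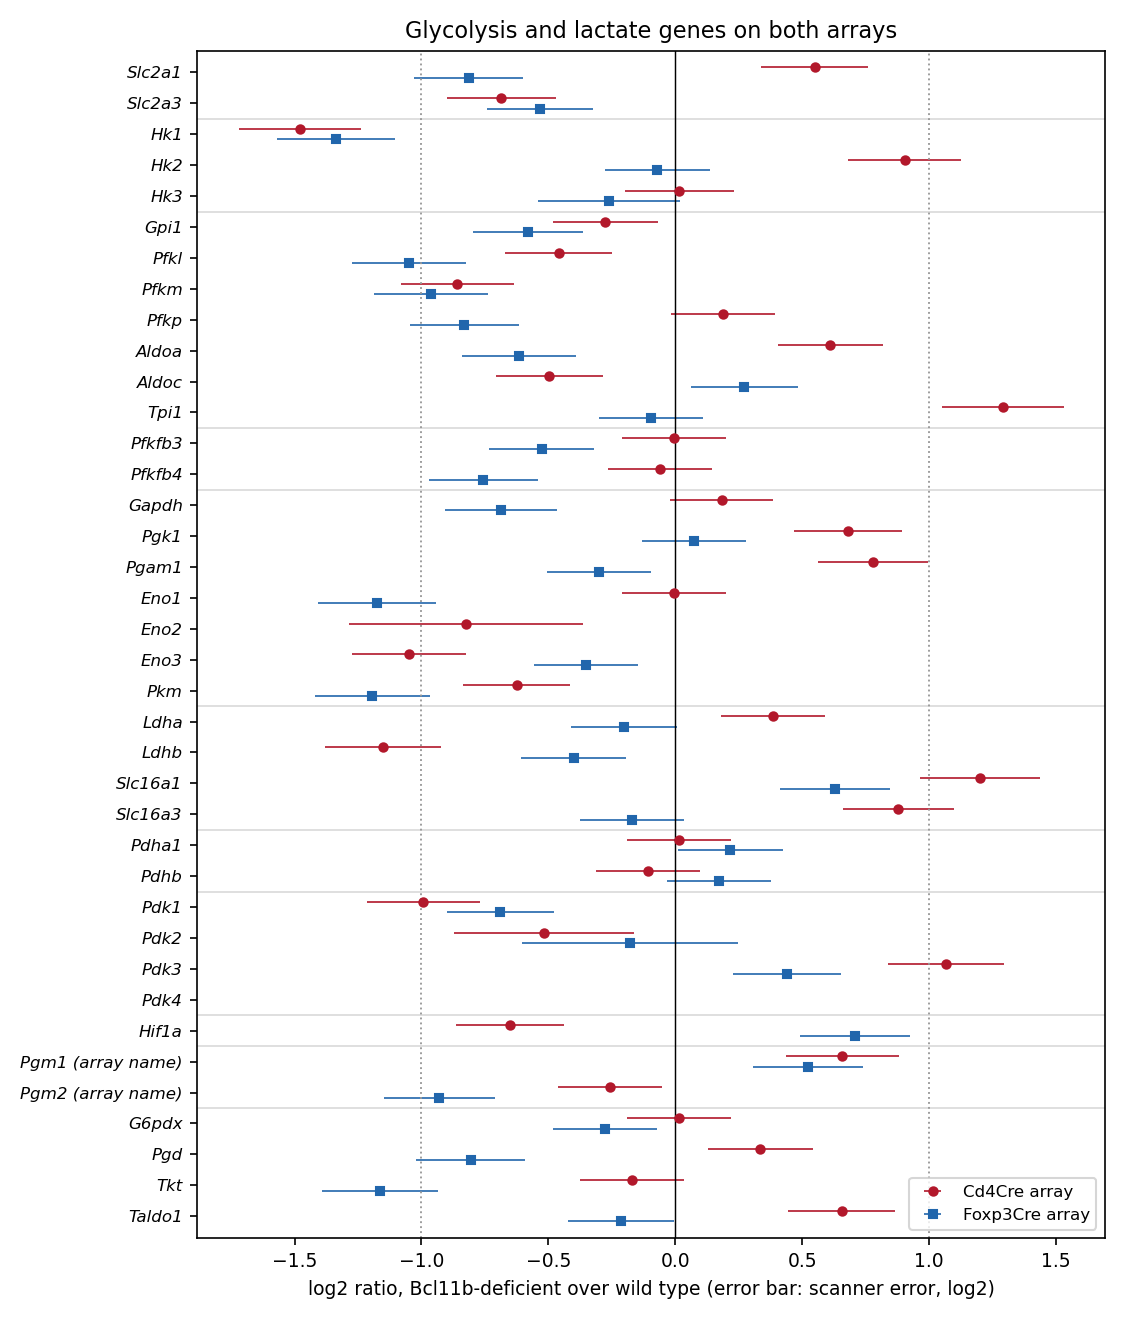
Log2 ratio of deficient over wild-type signal for each gene, grouped by role from glucose uptake (top) to the pentose phosphate branch (bottom). Circles are the Cd4Cre array and squares the Foxp3Cre array, bars are the scanner software's error for the spot, dotted lines mark 2-fold, and genes not detected on an array have no point. Hk1 lies beyond 2-fold lower on both arrays, while 18 genes with Cd4Cre and 8 with Foxp3Cre lie above 0 with loess, against 24 and 21 with median centring.

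Glucose enters T cells mainly through the transporters encoded by Slc2a1 (GLUT1) and Slc2a3 (GLUT3). Slc2a1 signal (log2) was 14.20 in deficient and 13.65 in wild-type Cd4Cre Tregs, and 13.60 in deficient and 14.42 in wild-type Foxp3Cre Tregs. The deficient pool was thus the higher one on the first array, at a ratio of 0.55 ± 0.21 (scanner error), and the lower one on the second, at -0.81 ± 0.22, which became 1.13 and -0.12 with median centring. Slc2a3 was lower in deficient cells on both, at -0.68 ± 0.21 and -0.53 ± 0.21, and remained below 0 under every alternative processing, though at -0.23 and -0.22 with median centring. A second Slc2a3 probe read 0.51 ± 0.35 on the Cd4Cre array, above its main probe by more than 1 log2 unit, and a further probe that the file names Slc2a3 is placed on chromosome 17 rather than 6, so this gene is uncertain.

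Hexokinases trap glucose in the cell as glucose 6-phosphate, and Hk1 was the gene with the lowest ratio on both arrays with loess. Hk1 (probe at chr10:61731916-61731975, mm9, minus strand) had a log2 signal of 14.40 in deficient and 15.88 in wild-type Cd4Cre Tregs, and of 13.69 in deficient and 15.02 in wild-type Foxp3Cre Tregs. With loess, both deficient pools lay below both wild-type pools. Within their arrays they were 2.79-fold and 2.52-fold lower, with ratios of -1.48 ± 0.24 and -1.34 ± 0.23. With median centring these became -0.61 and -0.57, still lower but short of 2-fold. Hk1 was then not the lowest gene on either array, since Pfkm was lower on both, at -0.79 and -0.77. The scanner software's ratio of Eno2, dim in its deficient channel, was also below that of Hk1 on the Cd4Cre array, at -2.26 against -1.42. With loess, Hk1 was the only gene of the 38 at least 2-fold lower on both arrays, beside 4.56% of all genes. None was at least 2-fold higher on both, beside 1.34%. The inducible Hk2, known to rise in activated T cells, had ratios of 0.90 ± 0.22 and -0.07 ± 0.21, the second within the scanner error and at 0.07 with median centring. Hk3, a myeloid-enriched hexokinase, had 0.02 ± 0.22 and -0.26 ± 0.28, both within the scanner error, and the first turned to -0.09 with median centring.

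In upper glycolysis, Gpi1 isomerises glucose 6-phosphate, the 3 phosphofructokinase genes Pfkl, Pfkm and Pfkp commit the sugar to glycolysis, the aldolases Aldoa and Aldoc split it and Tpi1 interconverts the triose phosphates. The 7 genes gave 4 ratios below 0 on the Cd4Cre array (3 with median centring) and 6 on the Foxp3Cre array (3 with median centring). Pfkm and Pfkl were lower in deficient cells on both arrays under every processing tried. Pfkm (chr15:97962713-97962772) had a log2 signal of 10.77 in deficient and 11.63 in wild-type Cd4Cre Tregs, and 10.61 in deficient and 11.57 in wild-type Foxp3Cre Tregs. Both deficient pools lay below both wild-type pools, and the ratios of -0.86 ± 0.22 and -0.96 ± 0.22 were short of 2-fold. Pfkl (chr10:77450926-77450985) read 10.97 in deficient and 11.43 in wild-type Cd4Cre Tregs, and 10.22 in deficient and 11.26 in wild-type Foxp3Cre Tregs, ratios of -0.46 ± 0.21 and -1.05 ± 0.23. With median centring the Foxp3Cre ratio of Pfkl was -0.90, which ended the 2-fold call.

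Tpi1 (chr6:124760947-124761006) had the highest ratio of the 38 genes on the Cd4Cre array, and not on the Foxp3Cre array. Its log2 signal was 15.68 in deficient and 14.39 in wild-type Cd4Cre Tregs, and 14.23 in deficient and 14.33 in wild-type Foxp3Cre Tregs. Deficient cells were 2.45-fold higher on the Cd4Cre array, at 1.29 ± 0.24 (2.14 with median centring), whereas the Foxp3Cre ratio of -0.10 ± 0.20 was within the scanner error and turned to 0.65 with median centring. Aldoa read 0.61 ± 0.21 and -0.62 ± 0.22, and Gpi1 -0.28 ± 0.21 and -0.58 ± 0.22, and the Foxp3Cre value of Aldoa and both values of Gpi1 turned positive with median centring (0.79, 1.03 and 0.74). Gpi1 was spotted 10 times on each array, and its spots had an SD of 0.041 with Cd4Cre and 0.063 with Foxp3Cre, a spread far under the shift that normalization made. The Pgk1 probe, with 10 and 9 spots kept, had SDs of 0.056 and 0.042. Aldoc, at -0.50 ± 0.21 and 0.27 ± 0.21, had opposite directions on the arrays. Pfkp read 0.19 ± 0.20, within the scanner error, and -0.83 ± 0.21, and its probes disagreed.

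The bifunctional enzymes encoded by Pfkfb3 and Pfkfb4 set the level of fructose 2,6-bisphosphate, which activates phosphofructokinase. Their ratios were -0.004 ± 0.20 and -0.06 ± 0.20 on the Cd4Cre array, within the scanner error, and -0.53 ± 0.21 and -0.76 ± 0.22 on the Foxp3Cre array. With median centring the Foxp3Cre values were -0.12 and -0.52, and the Cd4Cre values turned to 0.37 and 0.05.

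Lower glycolysis runs from Gapdh through Pgk1, Pgam1 and the enolases to pyruvate kinase, encoded by Pkm. Of its 7 genes, 4 had ratios below 0 on the Cd4Cre array (3 with median centring), and of the 6 detected on the Foxp3Cre array 5 did (2 with median centring). Pkm and Eno1 were at least 2-fold lower in deficient cells on the Foxp3Cre array. Pkm (chr9:59526907-59526966) had a log2 signal of 13.73 in deficient and 14.35 in wild-type Cd4Cre Tregs, and 13.33 in deficient and 14.53 in wild-type Foxp3Cre Tregs. Deficient cells had the lower signal on both arrays, at -0.62 ± 0.21 and -1.19 ± 0.23 (2.29-fold lower), with median-centred values of -0.02 and -0.52. Eno1 (chr4:149618134-149618359) read 11.73 in deficient and 11.73 in wild-type Cd4Cre Tregs, and 10.07 in deficient and 11.25 in wild-type Foxp3Cre Tregs. Its Cd4Cre ratio of -0.0061 ± 0.20 was within the scanner error, and its Foxp3Cre ratio of -1.18 ± 0.23 (2.26-fold lower) was still 2-fold with median centring, at -1.04.

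Eno3, the enolase best known from muscle, was lower in deficient Cd4Cre Tregs. Eno3 (chr11:70475929-70475988) had a log2 signal of 12.78 in deficient and 13.83 in wild-type Cd4Cre Tregs, and 12.54 in deficient and 12.89 in wild-type Foxp3Cre Tregs. The ratios were -1.05 ± 0.22 (2.07-fold lower) and -0.35 ± 0.21, and with median centring -0.62 and 0.08. Of 4 muscle markers, Acta1 and Myh2 were not well above background on either array, and on the Cd4Cre array Ckm had a ratio of 0.52, and Tnnt3, well above background only in the wild-type channel, was at least 1.03-fold lower in deficient cells. Eno2, the neuronal enolase, was well above background only in the wild-type channel of the Cd4Cre array, where deficient cells were at least 1.49-fold lower. Gapdh, Pgk1 and Pgam1 read 0.18 ± 0.20, 0.68 ± 0.21 and 0.78 ± 0.22 on the Cd4Cre array, and -0.69 ± 0.22, 0.07 ± 0.20 and -0.30 ± 0.21 on the Foxp3Cre array. With median centring they became 1.39, 1.80 and 1.85 on the Cd4Cre array, and 0.49, 1.26 and 0.76 on the Foxp3Cre array, so the Foxp3Cre direction of Gapdh and Pgam1 depends on that choice. Whether probes of these abundant enzymes also match processed copies of their genes was not tested.

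**Figure D2:**
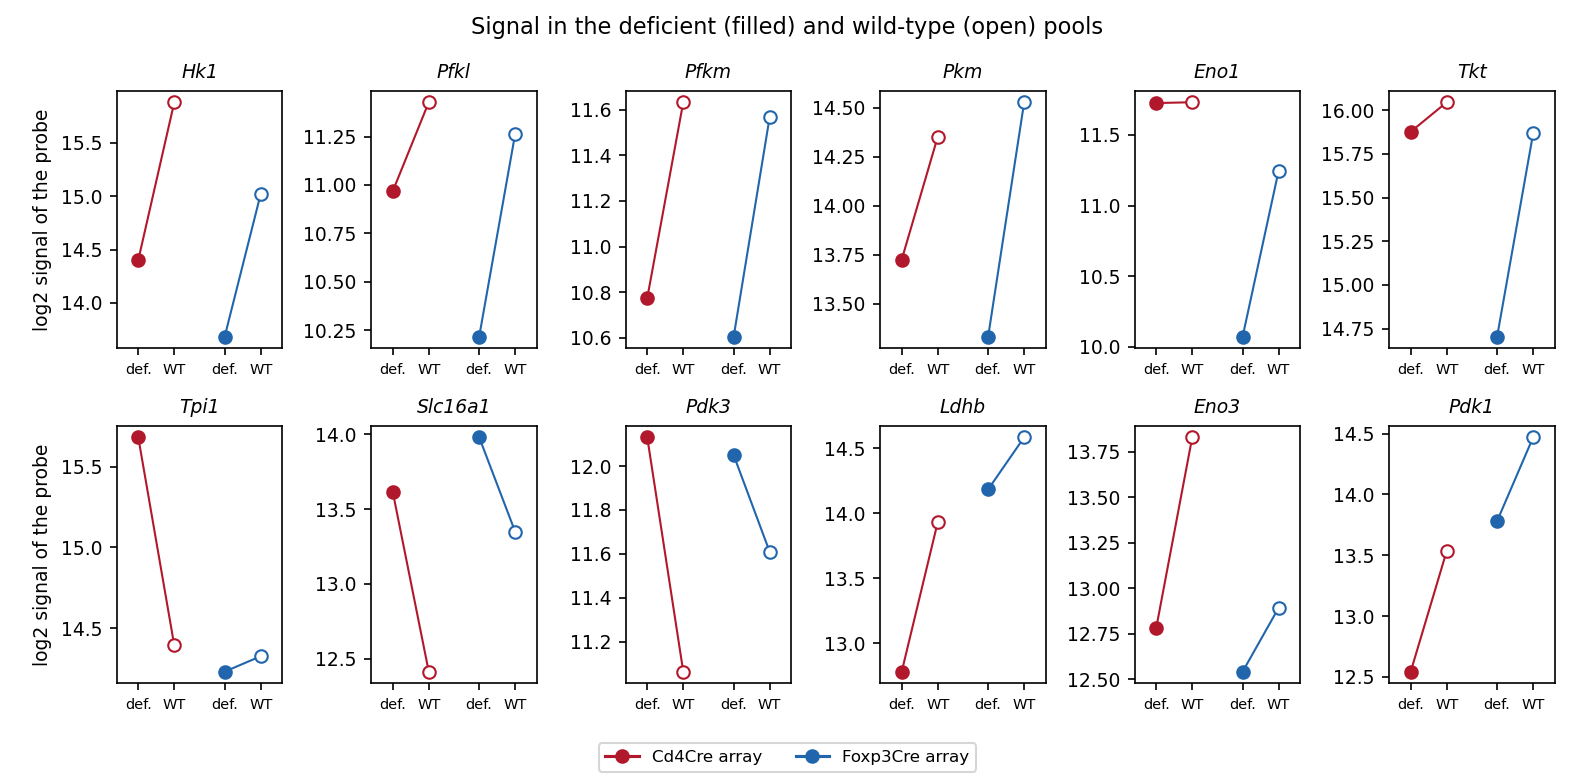
Log2 signal of 12 genes in each pool, deficient (def., filled) left of wild type (WT, open), with the Cd4Cre array in red and the Foxp3Cre array in blue. Each panel has its own axis, which does not start at 0, since levels of different probes cannot be compared. Slc16a1 and Pdk3 slope down from deficient to wild type on both arrays, and Hk1, Pfkl, Pfkm, Pkm, Ldhb, Eno3 and Pdk1 slope up on both, of which Ldhb, Eno3 and Pdk1 turn on the Foxp3Cre array with median centring.

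Lactate dehydrogenase is built from the Ldha subunit, which favours pyruvate to lactate, and the Ldhb subunit, which favours the reverse. Ldhb (chr6:142438838-142438897) had a log2 signal of 12.78 in deficient and 13.93 in wild-type Cd4Cre Tregs, and 14.19 in deficient and 14.59 in wild-type Foxp3Cre Tregs. Deficient cells were 2.22-fold lower on the Cd4Cre array, at -1.15 ± 0.23, and lower on the Foxp3Cre array, at -0.40 ± 0.21, but median centring gave -0.71 and 0.37. Ldha read 0.39 ± 0.21 with Cd4Cre and -0.20 ± 0.21 with Foxp3Cre, with median-centred values of 1.64 and 1.09.

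Slc16a1 encodes monocarboxylate transporter MCT1, which carries lactate and pyruvate with protons in either direction, and it was higher in deficient cells on both arrays. Slc16a1 (chr3:104460941-104461000) had a log2 signal of 13.61 in deficient and 12.41 in wild-type Cd4Cre Tregs, and 13.98 in deficient and 13.35 in wild-type Foxp3Cre Tregs. Both deficient pools lay above both wild-type pools, with ratios of 1.20 ± 0.24 (2.30-fold higher) and 0.63 ± 0.22 (1.55-fold higher), and with median centring the ratios were 1.57 and 1.25. All 3 Slc16a1 probes agreed in direction, between 0.88 and 1.36 with Cd4Cre and between 0.63 and 0.83 with Foxp3Cre. Slc16a3, which encodes the lactate exporter MCT4, had ratios of 0.88 ± 0.22 and -0.17 ± 0.21, and the Foxp3Cre value was within the scanner error and at 0.01 with median centring.

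Pyruvate enters the citric acid cycle through pyruvate dehydrogenase, whose catalytic subunits are encoded by Pdha1 and Pdhb. Their ratios were small, 0.014 ± 0.20 and -0.11 ± 0.20 with Cd4Cre and 0.22 ± 0.21 and 0.17 ± 0.21 with Foxp3Cre, though median centring gave 0.62 and 0.50 on the Cd4Cre array, and 1.06 and 0.95 on the Foxp3Cre array. The kinases that phosphorylate and switch off this complex went in different directions. Pdk3 (chrX:91010227-91010286) had a log2 signal of 12.13 in deficient and 11.06 in wild-type Cd4Cre Tregs, and 12.05 in deficient and 11.61 in wild-type Foxp3Cre Tregs. Deficient cells had the higher signal on both arrays, by 1.07 ± 0.23 (2.10-fold) and 0.44 ± 0.21 (1.36-fold), and by 1.19 and 0.74 with median centring. Pdk1 (chr2:71741820-71741879), a target of Hif1a, read 12.54 in deficient and 13.54 in wild-type Cd4Cre Tregs, and 13.78 in deficient and 14.47 in wild-type Foxp3Cre Tregs. Its ratios were -0.99 ± 0.22 and -0.69 ± 0.21, with -0.62 and 0.03 after median centring. Pdk2 was well above background only in the wild-type channel of each array, where deficient cells were at least 1.43-fold and 1.13-fold lower.

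Slc16a1 and Pdk3 are 2 of the 3 genes that were higher on both arrays under every processing tried, and their promoters are printed for that reason. Each run gives the 250 bases before the gene start, on the gene's strand, from the RefSeq tables of GRCm38.p6, at chr3:104638414-104638663 (plus strand) and chrX:93832151-93832400 (minus strand). Capitals mark ACGTG or GCGTG on either strand, the core of the element that Hif1a with Arnt is known to bind, and include CACGTG, the E-box that Myc is known to bind, which contains ACGTG.
Slc16a1: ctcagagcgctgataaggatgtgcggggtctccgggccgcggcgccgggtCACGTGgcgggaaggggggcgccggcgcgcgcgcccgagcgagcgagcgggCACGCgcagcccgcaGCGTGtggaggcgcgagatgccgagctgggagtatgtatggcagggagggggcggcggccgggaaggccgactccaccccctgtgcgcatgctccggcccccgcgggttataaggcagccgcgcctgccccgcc
Pdk3: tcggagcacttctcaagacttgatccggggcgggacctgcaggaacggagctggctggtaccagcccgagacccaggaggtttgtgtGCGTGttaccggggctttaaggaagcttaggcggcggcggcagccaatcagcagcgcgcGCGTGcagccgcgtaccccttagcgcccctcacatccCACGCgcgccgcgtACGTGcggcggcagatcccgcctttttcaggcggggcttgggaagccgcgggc
The Slc16a1 run held 3 such stretches and the Pdk3 run 4. Over the promoter windows of 300 bases (250 before the start and 50 after it), ACGTG or GCGTG on either strand was present in 42 of the 52 windows of 37 of these genes, 80.8%, beside 43.8% of all 32851 windows. The palindrome CACGTG, whose hits are also hits of ACGTG, was present in 6 of the 52 windows, 11.5%, beside 7.2% of all. At least 1 window with the core was found for 34 of the 37 genes, whichever way they went, beside 46.7% of all genes. The windows were not matched for base composition. A match describes these letters and does not show that a factor binds there.

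Hif1a itself, the oxygen-regulated factor that activates many glycolytic genes, had opposite directions on the arrays. Its log2 signal was 12.69 in deficient and 13.34 in wild-type Cd4Cre Tregs, and 13.41 in deficient and 12.70 in wild-type Foxp3Cre Tregs. Deficient cells thus had less Hif1a transcript on the Cd4Cre array, at -0.65 ± 0.21, and more on the Foxp3Cre array, at 0.71 ± 0.22, and the signs were the same under every alternative processing, with median-centred values of -0.28 and 1.20. Among 23 targets and partners of Hif1a, 21 were detected on the Cd4Cre array, of which 3 were higher and 3 lower by 2-fold or more in deficient cells, beside the 11.4% and 10.6% of all genes given above. The higher ones were Ddit4, an inhibitor of mTORC1 (1.56), Ero1a, a disulfide-forming oxidase of the endoplasmic reticulum (1.55), and Higd1a, a mitochondrial hypoxia-inducible protein (1.16). The lower ones were P4ha1, a collagen prolyl hydroxylase subunit (-1.47), Egln2, a HIF prolyl hydroxylase (-1.16), and Kdm3a, a histone demethylase (-1.07). On the Foxp3Cre array 22 were detected, none was at least 2-fold higher and 2 were at least 2-fold lower, Egln2 (-1.52) and Ddit4 (-1.13). Ddit4 therefore had opposite directions on the 2 arrays with loess, and its Foxp3Cre ratio was 0.13 with median centring, whereas Egln2 was lower on both under either choice. With median centring Egln2 and Kdm3a were short of 2-fold on the Cd4Cre array, at -0.92 and -0.84. On the Foxp3Cre array 3 of the 22 then passed 2-fold upward, Higd1a (1.09) and the mitophagy receptors Bnip3 (1.15) and Bnip3l (1.13). Of all 15187 genes detected there, 2043 were at least 2-fold higher with median centring.

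The probes that the array names Pgm1 and Pgm2 read the phosphoglucomutases at the branch to glycogen, but their accessions belong in RefSeq to Pgm2 (chromosome 5) and Pgm1 (chromosome 4), so the names are exchanged against the current ones. The probe named Pgm1 read 0.66 ± 0.22 and 0.52 ± 0.22, higher in deficient cells on both arrays under every processing. The probe named Pgm2 read -0.26 ± 0.21 and -0.93 ± 0.22, with 0.28 and -0.35 after median centring.

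In the pentose phosphate branch, G6pdx and Pgd catalyse the steps that make NADPH, and Tkt and Taldo1 shuttle carbon back to glycolysis. All 4 had ratios below 0 on the Foxp3Cre array (2 with median centring) and 1 of the 4 on the Cd4Cre array (none with median centring). Tkt (chr14:31386641-31386700) had a log2 signal of 15.88 in deficient and 16.05 in wild-type Cd4Cre Tregs, and 14.70 in deficient and 15.87 in wild-type Foxp3Cre Tregs. Its Foxp3Cre ratio was -1.16 ± 0.23 (2.24-fold lower), against -0.17 ± 0.20 on the Cd4Cre array, and the Foxp3Cre value shrank to -0.15 with median centring while the Cd4Cre one turned to 0.90. G6pdx, the entry enzyme, had ratios of 0.013 ± 0.20 and -0.28 ± 0.20, Pgd 0.34 ± 0.21 and -0.81 ± 0.21, and Taldo1 0.66 ± 0.21 and -0.21 ± 0.21. Their Foxp3Cre values became 0.36, -0.27 and 0.97 with median centring.

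Genes of the same step often differed from each other within an array. Because both values come from the same pools, the difference between the ratios of 2 isozymes shows unequal change and not which of them changed. Hk2 over Hk1 was higher in deficient cells by 2.38 log2 units on the Cd4Cre array (1.54 with median centring) and by 1.26 on the Foxp3Cre array (0.64). Pdk3 over Pdk1 was higher by 2.06 on the Cd4Cre array (1.81) and by 1.13 on the Foxp3Cre array (0.71). Those 2 pairs, picked from the 15 isozyme pairs compared after their values were seen, kept their direction on both arrays under the 3 normalizations compared, as did 9 of the 15 pairs in all. Several of the 9 pairs share a gene, and those with Pfkp rest on a gene whose probes disagreed. The share among other pairs of genes was not computed. Ldha over Ldhb was higher by 1.54 on the Cd4Cre array (2.35), but by only 0.20 on the Foxp3Cre array, where the scanner software's ratios gave -0.14 and median centring 0.72. Aldoa over Aldoc differed by 1.11 with Cd4Cre and by -0.89 with Foxp3Cre, and the Foxp3Cre difference turned to 0.41 with median centring. Eno1 over Eno3 differed by 1.04 with Cd4Cre and by -0.82 with Foxp3Cre, with 0.75 and -1.12 after median centring.

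**Figure D3:**
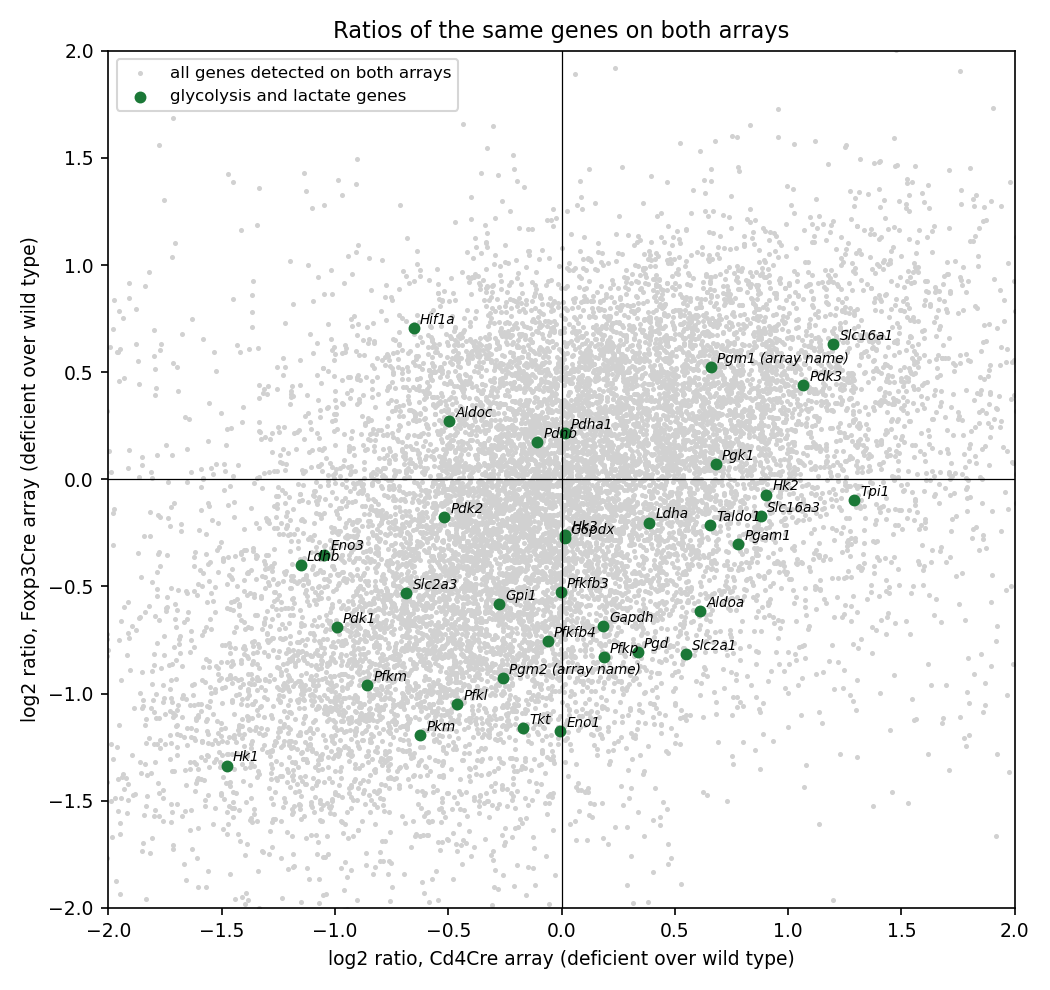
Ratio on the Cd4Cre array (horizontal, log2) against ratio on the Foxp3Cre array (vertical, log2), with the 36 genes detected on both in green over all genes detected on both in grey, with loess. The axes stop at 2 on each side and leave out genes beyond it. Of the 36, 20 lie in the quadrants of equal sign, 5 above 0 and 15 below 0 on both, and 26 lie to the right of where both ratios would be equal.

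Set side by side, 20 of the 36 genes detected on both arrays had ratios of the same sign, 5 above 0 and 15 below 0, beside 68.1% of all genes with the same sign. The Cd4Cre ratio was the greater one for 26 of the 36 genes, beside 58% of all genes, and the median difference was 0.58, against 0.14 for all genes. A limma fit of the average of both arrays' ratios, which counts the difference between the Cre systems as spread and has 1 residual degree of freedom per gene, called 0 of the 36 genes at an adjusted p under 0.05, beside 0% of all 14375 genes tested. At an unadjusted p under 0.05 it named 5 of the 36, beside 22.6% of all genes. Hk1 had the lowest adjusted p of these genes, 0.102 with a mean ratio of -1.41 and a standard error of 0.33 (limma, Benjamini-Hochberg over all genes). Pfkm, Pkm, Slc16a1 and Pdk1 followed with limma adjusted p of 0.161, 0.174, 0.172 and 0.189. Pdk3, Ldhb and Pfkl, which also had equal signs and a mean of at least 0.75 in size, had 0.241, 0.238 and 0.238. A total of 9 genes kept 1 direction on both arrays in every processing that gave them a value. Slc16a1, Pdk3 and the probe named Pgm1 were higher, and Slc2a3, Hk1, Pfkl, Pfkm, Pkm and Pdk2 were lower. This rule reads the sign only, and the Cd4Cre value of Pkm was -0.02 with median centring, within the scanner error. A second Slc2a3 probe read 0.51 on the Cd4Cre array. Pdk2, dim in both deficient channels, had a value in 7 of the 8 alternatives. The share of all genes that kept 1 direction in this way was not computed.

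**Figure D4:**
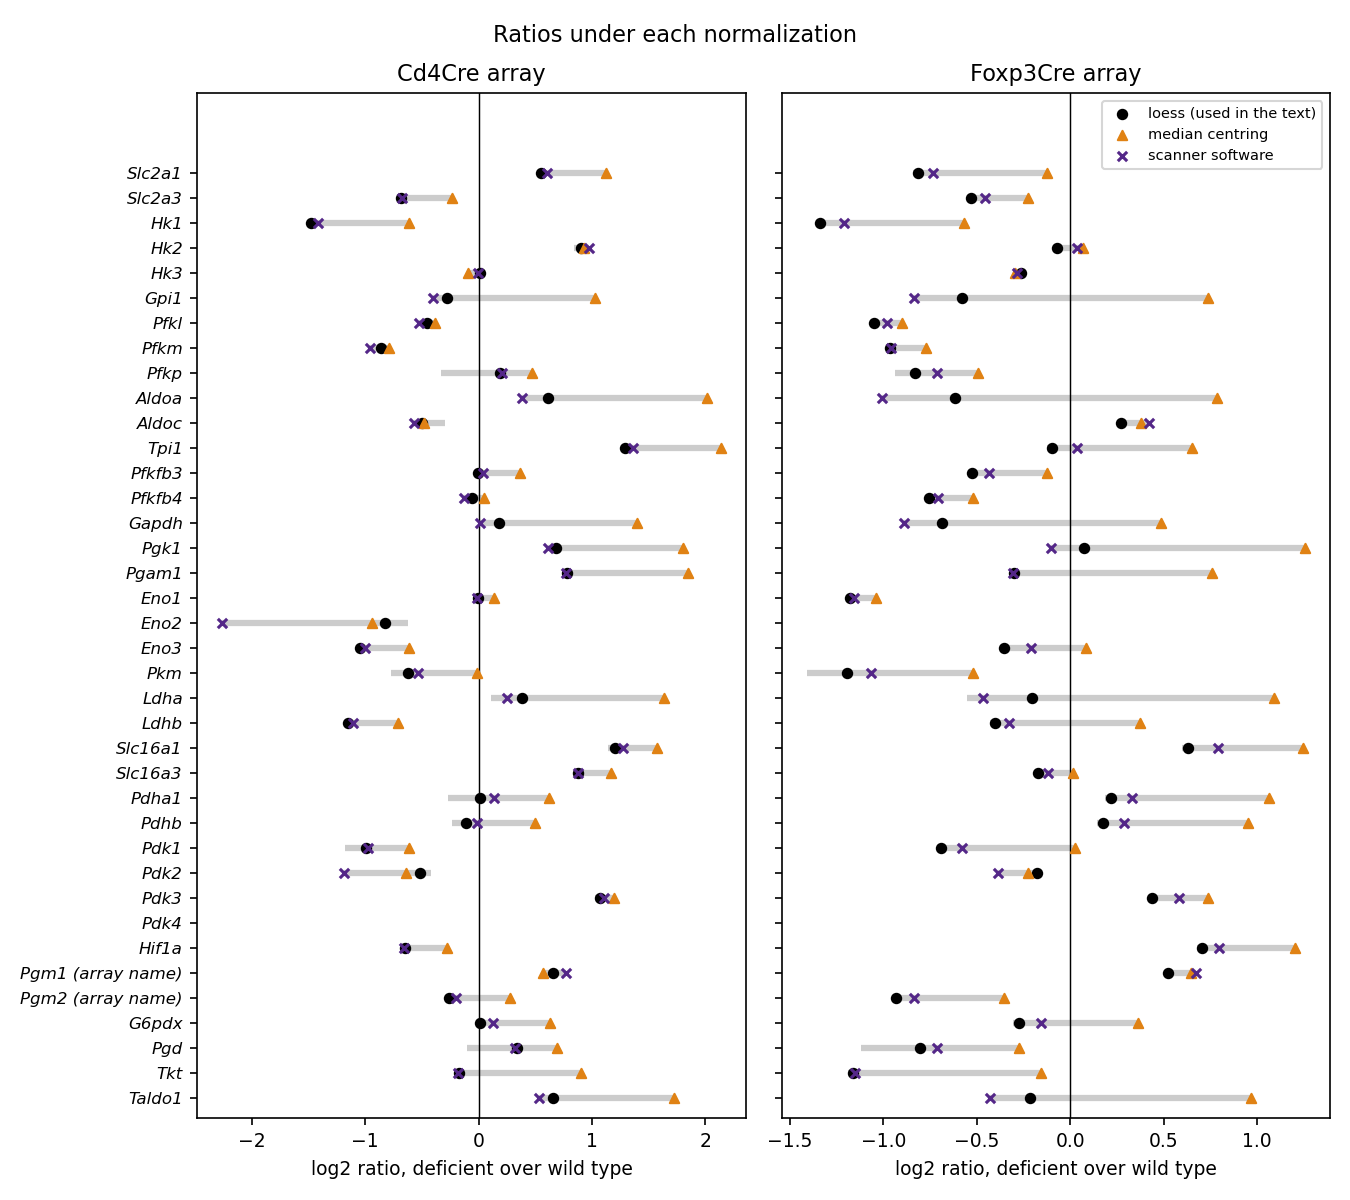
Log2 ratio of each gene on the Cd4Cre array (left) and the Foxp3Cre array (right) with loess (black circles), median centring without loess (orange triangles) and the scanner software's own normalization (purple crosses). Grey bars span the lowest and highest value over all alternatives. Median centring shifts most genes to the right and turns the sign of 8 of 37 genes on the Cd4Cre array and 13 of 36 on the Foxp3Cre array.

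Several genes were read by more than 1 probe, and for 4 of them the probes differed by more than 1 log2 unit on an array. For Hk1, the 3 probes above background in both channels of the Cd4Cre array read -1.47, -1.48 and -2.20, while 3 dimmer ones read -0.80, -0.10 and 0.06. On the Foxp3Cre array the 2 Hk1 probes above background in both channels read -1.34 and -1.58. The bright probes therefore all read Hk1 as lower, and the printed pair are 2 of the 3 bright ones on the Cd4Cre array. For Pfkp the probes disagreed at good signal, with 0.19, -1.32 and 0.14 on the Cd4Cre array and -0.83, -2.17 and 0.18 on the Foxp3Cre array, so no direction is settled for this gene. Tkt rested on its single bright probe on the Foxp3Cre array, since 2 dim ones read -0.14 and 0.14, and Slc2a3 is described above. Pkm was lower by every probe kept, with -0.62, -0.75 and -0.94 with Cd4Cre and -1.19 and -1.63 with Foxp3Cre, where a further spot was marked as an outlier. Pdk3 probes read 1.07 and 1.18 with Cd4Cre and 0.44 and 0.58 with Foxp3Cre, and Pdk1 probes -0.99 and -1.37, then -0.69 and -0.40. Ldha and Pgd each had a second bright probe that turned the Cd4Cre direction, at -0.17 beside 0.39 and at -0.54 beside 0.34. On the Foxp3Cre array the second Ldha probe read -0.90 beside -0.20, and the second Pgd probe -1.43 (2.70-fold lower) beside -0.81.

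**Figure D5:**
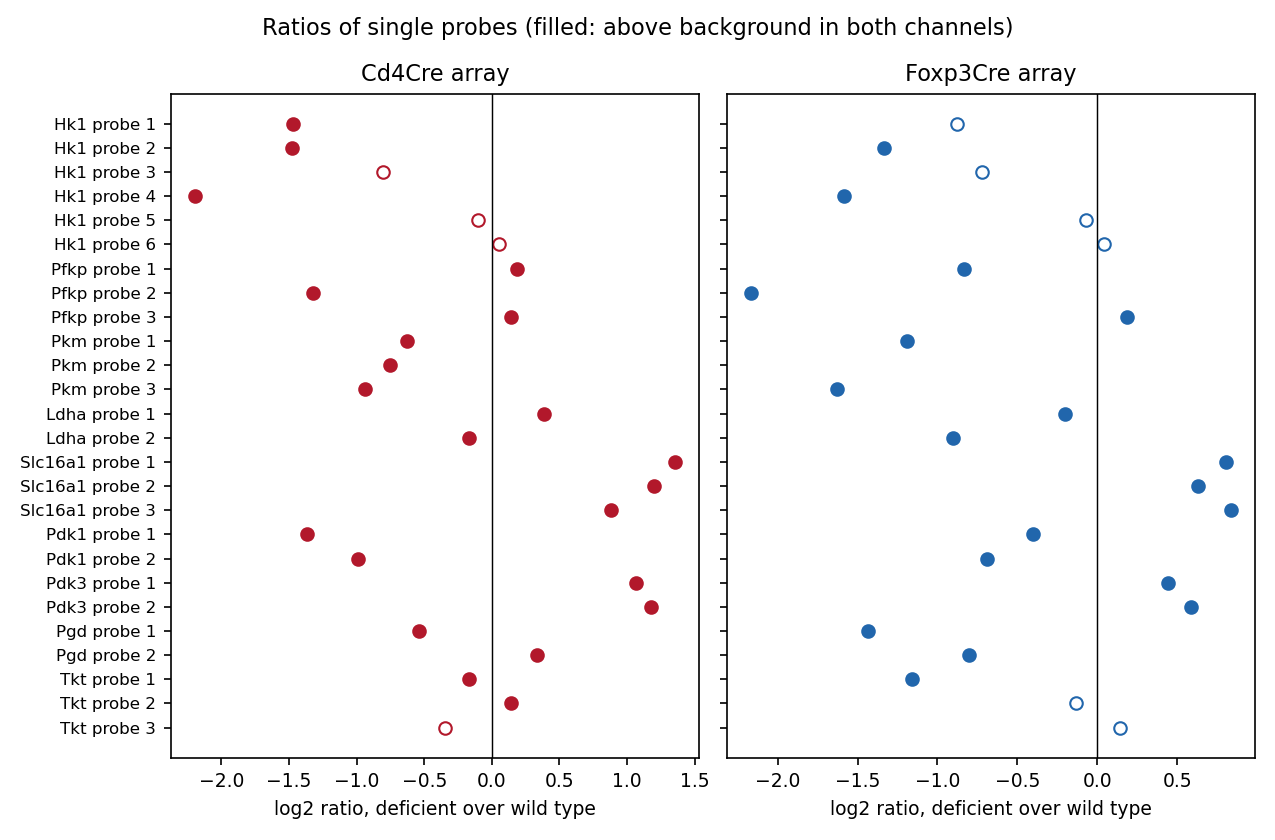
Log2 ratio of every probe of 9 genes on the Cd4Cre array (left) and the Foxp3Cre array (right), filled where the probe was well above background in both channels and open where it was dim in at least 1, with loess. All filled points of Hk1, Pkm and Pdk1 lie below 0 and all of Slc16a1 and Pdk3 above 0 on both arrays, whereas Pfkp has points on both sides of 0.

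Beyond the 38 genes, a list of 56 other genes of sugar metabolism held 54 with a probe, of which 42 were detected with Cd4Cre and 39 with Foxp3Cre. Their median ratios were 0.07 and -0.02. By the 2-fold mark, 3 were higher and 1 was lower in deficient Cd4Cre Tregs, while 1 was higher and 3 were lower in deficient Foxp3Cre Tregs, beside the shares of all genes given above. Slc2a6, a sugar transporter of intracellular membranes found in leukocytes, had the ratio of greatest size, 2.18 on the Cd4Cre array against -0.75 on the Foxp3Cre array. Pygl, the liver form of glycogen phosphorylase, had 1.56 and 0.59, and Pgam2, the muscle form of phosphoglycerate mutase, 1.53 and 0.04. Gpd1, the cytosolic glycerol 3-phosphate dehydrogenase, had -1.85 and 0.10. Rpe, an epimerase of the pentose phosphate branch, was higher on both arrays at 0.97 and 1.09. Pygb, the brain form of glycogen phosphorylase, had -0.51 and -1.58, Ldhd, a D-lactate dehydrogenase, -0.02 and -1.12, and H6pd, the hexose 6-phosphate dehydrogenase of the endoplasmic reticulum, -0.68 and -1.03. Median centring gave 8 of 42 higher and 2 lower on the Cd4Cre array, beside 2858 and 1319 of all 15877 genes. On the Foxp3Cre array it gave 5 of 39 higher and 2 lower, beside 2043 and 1022 of all 15187 genes. The list's medians were 0.17 and 0.15 with median centring. Mpc1, a subunit of the mitochondrial pyruvate carrier, and Emb, a partner of monocarboxylate transporters, then passed 2-fold upward on both arrays, Emb at 1.38 and 1.07 and Mpc1 at 1.20 on the Cd4Cre array. With median centring H6pd was at -0.85 on the Foxp3Cre array, short of 2-fold, and Rpe at 1.01 on the Cd4Cre array, just past it.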

How the data were processed

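Total RNA of sorted Tregs was amplified, labelled with Cy3 (wild type) or Cy5 (deficient) and hybridised to 2 Agilent arrays of 60-base probes, per the labels' protocols. The deposited scanner files hold spot and local background intensity, log10 ratios with their error and p-value, and flags, made with Feature Extraction 10.5.1.1 (Cd4Cre) and 10.7.3.1 (Foxp3Cre) per the file headers (10.5.1 per the submitters' processing notes). The p-values of the deposited files were not used. The deposited value table held the same log10 ratios as the scanner files (largest difference 0).

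Mean and background intensities were corrected with normexp (offset 50) and normalized by loess within each array in limma 3.58.1 (R 4.3.3), with control spots at weight 0 and spots marked as outliers left out (137 and 155). The Aquantile method set the channel signals and left the ratios unchanged. Spots of a probe were averaged, and the probe with the highest signal over both arrays stood for its gene. Of the 43379 gene spots, 21773 and 20689 were well above background in the deficient channels and 24439 and 23446 in the wild-type channels of the Cd4Cre and Foxp3Cre arrays, and 0 were saturated. Precision is limited by the number of arrays, 1 per Cre system; 245 probes with repeat spots had a median SD of 0.056 (Cd4Cre) and 0.071 (Foxp3Cre). Names came through RefSeq tables of GRCm38.p6 through the accession for 24844 probes, the symbol for 6045 and a synonym for 1810, while 8475 kept the array's own name. Coordinates of probes are in mm9, as deposited.

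A gene at least 2-fold higher or lower on 1 array was called without a test, with all detected genes as background. The mean ratio over both arrays was fitted in limma with empirical Bayes and Benjamini-Hochberg adjustment, and the fit was tested on simulated data, where it rarely called 2-fold changes and made more false calls than its nominal level. A bound ("at least") compares the bright channel with the dim probe's signal or, where that is higher, the lowest signal of any probe well above background. Genes were described in full when at least 2-fold on either array, or when both ratios had the same sign and a mean of at least 0.75 in size; genes of the other lists were named when at least 2-fold on either array. The 38 genes and all lists were chosen with earlier results of these data known. Alternatives changed the background correction, normalization, probe rule, dim-probe filter, outlier flags and variance prior.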

Additional observations from a re-analysis of the deposited data

Results flagged for a closer look

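Of these genes, 7 had opposite directions on the 2 arrays, each by more than the scanner error of its spot. The share of all genes that did so was not computed. Without regard to the scanner error, 20 of the 36 genes detected on both arrays had equal signs, beside 68.1% of all genes. The difference between the Cre systems was not tested, since each has 1 array. Given as the Cd4Cre ratio minus the Foxp3Cre ratio (log2), it was 1.36 for Slc2a1, 1.23 for Aldoa, 1.08 for Pgam1, 1.14 for Pgd and 0.87 for Taldo1, all higher in deficient cells on the Cd4Cre array and lower on the Foxp3Cre array with loess. With median centring, Aldoa, Pgam1 and Taldo1 were higher in deficient cells on both arrays, and Slc2a1 and Pgd still had opposite directions. The opposite direction of Pgd rests on the choice of probe, since the mean over its probes was -0.10 with Cd4Cre and -1.12 with Foxp3Cre. The difference was -1.36 for Hif1a and -0.77 for Aldoc, both lower in deficient cells on the Cd4Cre array and higher on the Foxp3Cre array, also with median centring. The median difference over all genes detected on both arrays was 0.14.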

How the results depend on the processing

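Median centring without loess moved the results most. It gave 12 of 37 detected genes at least 2-fold higher and 0 lower on the Cd4Cre array, beside 2858 and 1319 of all 15877. On the Foxp3Cre array 5 of 36 were higher and 1 lower, beside 2043 and 1022 of all 15187. The median ratios were 0.50 and 0.078, beside 0.07 and 0.16 for all genes, so both medians reversed in sign. Relative to the median of all genes neither reversed. The Cd4Cre difference from it was 0.046 with loess and 0.43 with median centring, and the Foxp3Cre difference was -0.29 and -0.087. Median centring moved 53 of the 73 single-gene ratios by more than their scanner error. The scanner software's ratios moved 7, the mean over a gene's probes 9 and the other alternatives 0. The Cd4Cre median, close to 0, also reversed to 0.0071 with a normexp offset of 10 and to 0.013 with the filter for both channels above background. The scanner software's ratios gave 5 genes at least 2-fold lower on the Cd4Cre array, beside 2966 of all 15877. The cause of these shifts was not tested. Among the 38 genes, no ratio that was at least 2-fold with loess changed sign under an alternative. Some smaller ratios changed sign and passed 2-fold with median centring. Gpi1 went from -0.28 to 1.03 on the Cd4Cre array, and Ldha from -0.20 to 1.09 on the Foxp3Cre array. The limma fit called 0 of these genes under every alternative, including the intensity trend, while over all genes it called 309 with median centring, 34 with the filter for both channels and 0 otherwise. No paired analysis was possible because each array gives 1 ratio of its own 2 pools, which leaves no unpaired fit to set beside it, and leaving out an array left no residual degrees of freedom. Dim probes (Pdk2, Pdk4, Eno2) give bounds or no value.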
